A study of Mus musculus with 12 samples.

Results

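RNA for the receptors of type I and type II interferon was followed here in macrophages exposed to IFNβ. So was RNA for the JAK kinases that sit on these receptors and for the SOCS proteins that switch their signal off. The 10 genes were chosen by name: Ifnar1, Ifnar2, Ifngr1, Ifngr2, Jak1, Jak2, Tyk2, Socs1, Socs2 and Socs3. They are 10 of the 56748 genes listed, and all 10 were among the 15033 genes that passed the filter on low counts and were tested. Each of the 10 was above the cutoff of that filter, 0.251 counts per 1000000, in at least 2 libraries of every condition.

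BMDM, macrophages grown from mouse bone marrow, came from female C57BL/6J mice bought as adults. They were grown in M-CSF (20 ng/mL), given IL4 (10 ng/mL, 48 hours) for M2-like polarization, and cultured for another 72 hours under 1 of 4 conditions with 3 biological replicates each. These were plain medium (untreated control), supernatant of YUMM5.2 eGFP melanoma cells, supernatant of YUMM5.2 Ifnb1eGFP melanoma cells, and recombinant IFNβ (rIFNβ). Both kinds of donor cell had received Dox at 1 µg/mL for 72 hours, which drives Ifnb1 with eGFP, or eGFP alone, from a tetracycline-responsive lentiviral vector in a sorted population of cells. The Ifnb1eGFP supernatant was brought to 1500 pg/mL IFNβ and the eGFP supernatant was diluted by the same ratio, while rIFNβ was set to an equivalent concentration. Neither untreated nor rIFNβ-treated BMDM received melanoma supernatant. The sources used here differ on the supplier of rIFNβ and do not say what a replicate number stands for, so that the p-values below measure the spread between these libraries.

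IFNβ is sensed by a receptor made of a pair of chains, IFNAR1 and IFNAR2. TYK2 is bound to IFNAR1 and JAK1 to IFNAR2, and after binding they phosphorylate STAT proteins, among them STAT2, which enter the nucleus with IRF9 and switch on interferon-stimulated genes. The receptor of IFNγ is built the same way from IFNGR1, which carries JAK1, and IFNGR2, which carries JAK2, and also signals through STAT proteins. SOCS1 and SOCS3 are induced by cytokines, block JAK kinase activity and so close a feedback loop, and SOCS2 is best known for restraining growth hormone signaling. IL4, the cytokine that made these cells M2-like, signals through JAK1, JAK3 and STAT6 in macrophages and is itself restrained by SOCS1.

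The stretch around the start of each gene, from 250 bases before it to 50 bases after it, was read for motifs that STAT and IRF proteins can bind. RefSeq promoter sequences of build GRCm38.p6 covered 9 of the 10 genes, without Socs2, and each was found once, letter for letter, in GRCm39. Searched on both strands were TTCNNNGAA, a STAT site known as GAS, GAAANNGAA, a pair of repeats that IRF proteins bind, and the STAT6 form of the GAS site, with 4 bases between its TTC and GAA. The promoters of the genes whose RNA moved most with IFNβ, and of Socs3, are shown 5′ to 3′ in the direction of the gene, with the matches in capitals. Socs1 lies at chr16:10603351-10603650 (minus strand), Socs3 at chr11:117860143-117860442 (minus), Ifnar1 at chr16:91281853-91282152 (plus), Ifnar2 at chr16:91169421-91169720 (plus) and Jak2 at chr19:29228953-29229252 (plus).
Socs1: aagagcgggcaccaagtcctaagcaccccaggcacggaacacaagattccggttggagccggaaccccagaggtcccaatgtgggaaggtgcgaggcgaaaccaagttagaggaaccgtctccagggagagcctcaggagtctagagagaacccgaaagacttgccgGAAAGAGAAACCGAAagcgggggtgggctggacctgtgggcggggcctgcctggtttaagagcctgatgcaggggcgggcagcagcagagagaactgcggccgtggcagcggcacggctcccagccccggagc
Socs3: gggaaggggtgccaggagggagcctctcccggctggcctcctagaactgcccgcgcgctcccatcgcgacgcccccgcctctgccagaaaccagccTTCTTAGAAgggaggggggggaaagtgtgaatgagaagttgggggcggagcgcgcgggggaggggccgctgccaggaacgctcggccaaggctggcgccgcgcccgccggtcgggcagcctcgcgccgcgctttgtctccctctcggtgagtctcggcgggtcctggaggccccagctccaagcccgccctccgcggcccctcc
Ifnar1: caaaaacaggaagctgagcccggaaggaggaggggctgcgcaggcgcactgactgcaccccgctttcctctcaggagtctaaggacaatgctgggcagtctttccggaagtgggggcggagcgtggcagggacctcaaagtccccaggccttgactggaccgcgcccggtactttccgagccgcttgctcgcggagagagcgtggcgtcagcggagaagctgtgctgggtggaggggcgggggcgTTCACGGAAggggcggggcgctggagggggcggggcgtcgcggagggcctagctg
Ifnar2: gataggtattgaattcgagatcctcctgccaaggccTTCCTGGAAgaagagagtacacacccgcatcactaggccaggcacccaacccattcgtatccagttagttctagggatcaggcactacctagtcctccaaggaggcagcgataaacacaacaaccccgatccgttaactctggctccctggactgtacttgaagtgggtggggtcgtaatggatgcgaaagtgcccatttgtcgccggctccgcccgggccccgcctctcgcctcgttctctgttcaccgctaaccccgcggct
Jak2: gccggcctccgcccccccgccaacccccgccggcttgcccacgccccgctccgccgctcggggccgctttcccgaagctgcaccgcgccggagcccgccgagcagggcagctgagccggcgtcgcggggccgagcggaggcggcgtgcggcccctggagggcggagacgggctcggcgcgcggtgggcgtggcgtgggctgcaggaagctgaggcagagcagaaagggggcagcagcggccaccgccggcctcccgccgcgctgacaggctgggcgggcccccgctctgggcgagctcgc

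Socs1 held a pair of overlapping IRF matches, GAAAGAGAA from 83 bases and GAAACCGAA from 77 bases before the listed start. A GAS match stood in Socs3 (TTCTTAGAA, from 154 bases before the start), in Ifnar1 (TTCACGGAA, from 5 bases before it) and in Ifnar2 (TTCCTGGAA, from 214 bases before it). Ifngr2 had the STAT6 form, from 91 bases before its start. None of the motifs was found in these windows of Ifngr1, Jak1, Jak2 and Tyk2. Such short motifs are common: of 32544 mouse promoter windows of the same length, 8.33% held the GAS letters, 8.53% the IRF pair and 6.98% the STAT6 form. The listed start can also lie inside the gene as GENCODE M39 draws it, by 475 bases for Socs1, 706 for Socs3 and 526 for Jak2, and by 161 and 53 bases for Ifnar1 and Ifnar2.

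Libraries held 31526034 to 45348457 counts. The summed CPM (counts per 1000000, with library totals scaled by TMM) of 12 interferon-stimulated genes was 146.8 to 232.8 in untreated BMDM, 11100 to 12230 with Ifnb1eGFP supernatant and 11890 to 12540 with rIFNβ. With eGFP supernatant it was 249.8, 959.4 and 155.5, so that the library numbered 2 stood apart from the other two, and its removal is given beside the comparisons with eGFP supernatant. All 7 macrophage markers were abundant, but their summed CPM was lower with IFNβ. It was 14120 to 15260 in untreated BMDM and 17930 to 18460 with eGFP supernatant. With Ifnb1eGFP supernatant it was 10290 to 10580 and with rIFNβ 9648 to 9821. Lyz2 and Itgam fell with both sources (log2 fold change −1.44 and −2.17 with rIFNβ). At an adjusted p of at most 0.05 (edgeR) 4 of the 7 were higher with rIFNβ, beside 30.7% of all genes. Of 4 markers of M2 activation, Mrc1 (CD206) had 19880 to 38628 counts, Chil3 1989 to 5855, Retnla 1869 to 2925 and Arg1 7 to 36. Markers of other cells were scarcer, with a summed CPM of at most 0.0506 for 3 T cell genes, 0.329 for 3 B cell genes, 1.36 for 3 mast cell genes and 0.809 for 4 melanoma genes. Kit of the mast cell list (10 to 33 counts) and Pmel of the melanoma list (9.19 to 30.9) were found in every library. The neutrophil list fell with IFNβ, from 4.28 to 5.72 summed CPM without it to 0.208 to 0.985 with it, through S100a8, the 1 of its 5 genes that was tested, and Zbtb46 of the dendritic list fell as well (1.22 to 1.62 against 0.273 to 0.438 for its list). The part of such cells in the results below was not tested, and in bulk RNA fewer cells of a type cannot be told apart from less RNA per cell.

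The first question was whether tumoral IFNβ moved these genes, which the Ifnb1eGFP supernatant answers against the eGFP supernatant, and whether rIFNβ did so against untreated control. Jak2 and Socs1 rose and Socs2 fell at least 2-fold with both sources of IFNβ, and Ifnar2 rose and Ifnar1 and Ifngr2 fell by less. Tyk2 (higher) and Jak1 (lower) passed the threshold with rIFNβ only. Ifngr1 and Socs3 passed it with neither, though Socs3 passed it with both when the replicate number was added to the model as a block. At an adjusted p of at most 0.05 (edgeR's quasi-likelihood test over all genes tested), 3 of the 10 genes were higher and 3 lower with Ifnb1eGFP supernatant. Of all genes tested, 30.1% were higher and 25% lower, 55.1% in all, so that 6 of 10 is a share like that of other genes. With rIFNβ 4 genes were higher and 4 lower, where 30.7% of all genes were higher and 24.6% lower, 55.3% in all. The median log2 fold change of the 10 genes was 0.09 with Ifnb1eGFP supernatant and 0.18 with rIFNβ, beside 0.03 and 0.04 over all genes tested. A change of at least 2-fold was called for 3 of the 10 with each source, beside 15.4% and 16% of all genes. The libraries of the compared conditions did not overlap for 7 and 8 of the 10, beside 59% and 66.1% of all genes.

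**Figure D1:**
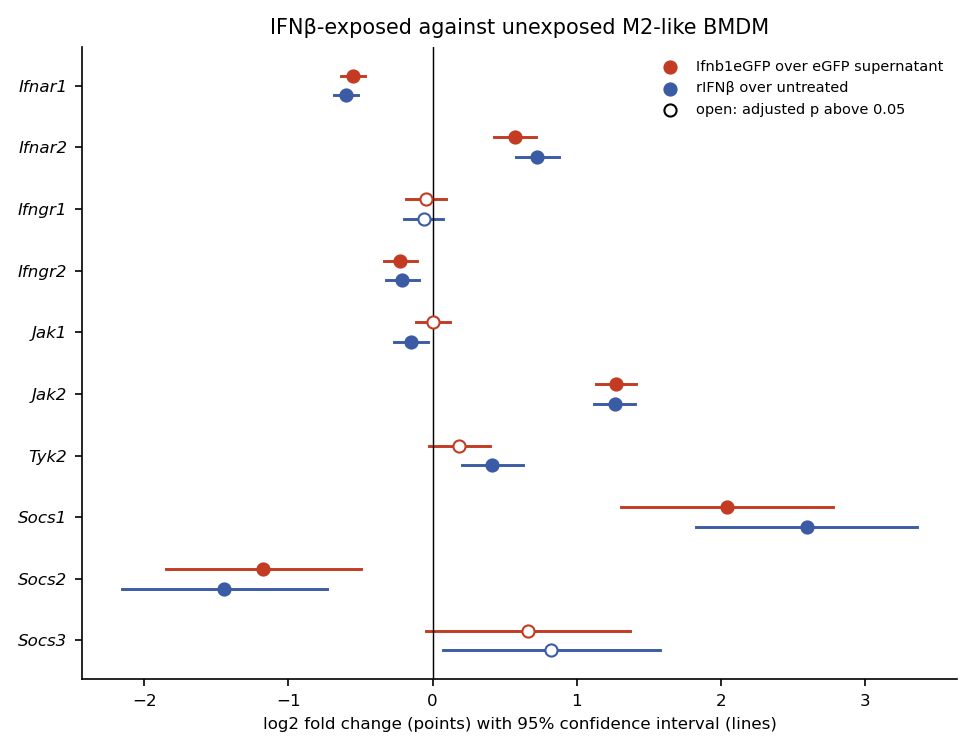
Log2 fold change of each of the 10 genes (horizontal axis) for Ifnb1eGFP over eGFP supernatant (red) and rIFNβ over untreated control (blue), with 95% confidence intervals as lines and open points for an adjusted p above 0.05. Jak2 and Socs1 lie right of zero and Ifnar1, Ifngr2 and Socs2 left of it in both comparisons, and the intervals of Socs genes are the widest.

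Ifnar1 (ENSMUSG00000022967, chr16:91281942-91305789, plus strand, all gene positions in GRCm39), the chain that carries TYK2, was lower with IFNβ. It had 130.1, 126.5 and 130.5 CPM in the untreated libraries, 140.5, 134.7 and 135.7 with eGFP supernatant, 94.1, 94.5 and 91.3 with Ifnb1eGFP supernatant and 87.2, 86.5 and 81.9 with rIFNβ. Each IFNβ-exposed library was below each unexposed one, and the 4 conditions did not overlap at all. The log2 fold change was −0.60 (SE 0.0385, adjusted p = 1.39e-07) with rIFNβ. For Ifnb1eGFP against eGFP supernatant it was −0.55 (SE 0.0384, adjusted p = 2.93e-07), and −0.57 (adjusted p = 2.24e-06) without the eGFP library that stood apart.

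Ifnar2 (ENSMUSG00000022971, chr16:91169618-91202723, plus strand), the chain that carries JAK1 and binds IFNβ with high affinity, went the other way. Its CPM was 74.5, 78.5 and 78.5 in untreated BMDM, 84.0, 90.6 and 82.7 with eGFP supernatant, 116, 141 and 125 with Ifnb1eGFP supernatant and 126, 132 and 125 with rIFNβ. All 6 exposed libraries were above the 6 unexposed ones, and the library numbered 2 was the highest of its 3 in each condition that received supernatant or rIFNβ. The log2 fold change was 0.57 (SE 0.0671, adjusted p = 2.21e-05) with Ifnb1eGFP supernatant, 0.61 without the eGFP library that stood apart, and 0.73 (SE 0.0674, adjusted p = 2.95e-06) with rIFNβ. A second annotated gene, Gm21970, overlaps Ifnar2 on the same strand and had 565 to 2100.45 counts per library, 30.2% of the total of Ifnar2, and RSEM may divide reads between them. With its counts added to Ifnar2 the log2 fold change was 0.65 and 0.75.

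The ratio of both chains, taken within each library and not corrected for length, showed these moves together. There were 0.572 to 0.672 counts of Ifnar2 for each count of Ifnar1 in unexposed libraries and 1.23 to 1.53 in exposed ones, with no overlap. The ratio was 2.34-fold higher with IFNβ (two-sided exact permutation test within supernatant and supernatant-free libraries, 400 relabellings, p = 0.005, the smallest they can give, adjusted p = 0.01 over 4 ratios). On the log2 scale this is 1.22, and 1.25 without the eGFP library that stood apart.

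Ifngr1 (ENSMUSG00000020009, chr10:19467697-19485977, plus strand), which binds IFNγ, had 127.9, 141.6 and 150.1 CPM in untreated libraries and 144.2, 143.5 and 162.8 with eGFP supernatant. It had 146.2, 143 and 146.8 CPM with Ifnb1eGFP supernatant and 133.5, 133.3 and 135.2 with rIFNβ. Exposed and unexposed libraries overlapped in both comparisons. The log2 fold change was −0.05 (95% confidence interval −0.18 to 0.09, adjusted p = 0.554) with Ifnb1eGFP supernatant, −0.08 (adjusted p = 0.386) without the eGFP library that stood apart, and −0.06 (−0.20 to 0.08, adjusted p = 0.429) with rIFNβ.

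Ifngr2 (ENSMUSG00000022965, chr16:91343906-91362512, plus strand), the signaling chain that carries JAK2, fell by a small step. It had 99.8, 103 and 99.2 CPM in untreated BMDM, 110.3, 107 and 101 with eGFP supernatant, 90.1, 95.6 and 86.6 with Ifnb1eGFP supernatant and 88.9, 89.7 and 82.4 with rIFNβ. Each exposed library was below each unexposed one. The log2 fold change was −0.22 (SE 0.0516, adjusted p = 0.00331) with Ifnb1eGFP supernatant, −0.22 without the eGFP library that stood apart, and −0.21 (SE 0.0518, adjusted p = 0.00481) with rIFNβ. The within-library ratio of Ifngr2 to Ifngr1 was 0.619 to 0.780 in unexposed and 0.590 to 0.673 in exposed libraries, which overlap, 0.892 times as high with IFNβ (exact permutation test as above, p = 0.045, adjusted p = 0.045). Leaving out 1 library took it past 0.05 for 8 of the 12 libraries: control 1 and 2, eGFP supernatant 1 and 2, each of the Ifnb1eGFP supernatant libraries, and rIFNβ 3. Its adjusted p was 0.055 to 0.095 without them. With libraries of the same replicate number treated as pairs, a sign-flip test (64 sign flips) gave an adjusted p of 0.03125 for this ratio. That is the smallest it can give, and what the numbers stand for is not known.

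Ifnar2, Ifnar1 and Ifngr2 are neighbours on chromosome 16, and the stretch from the start of Ifnar2 to the end of Ifngr2 (chr16:91169618-91362512) holds 5 protein-coding genes in the count table, all on the plus strand. In this order, Ifnar2, Gm21970 and Il10rb (the shared second chain of the IL10 receptor, chr16:91203012-91224600) were higher with IFNβ, and Ifnar1 and Ifngr2 were lower. Il10rb had a log2 fold change of 0.73 (SE 0.0348, adjusted p = 1.48e-08) with Ifnb1eGFP supernatant and 0.77 (SE 0.0348, adjusted p = 8.53e-09) with rIFNβ. Gm21970 had 0.92 (adjusted p = 3.3e-05) and 0.84 (adjusted p = 7.09e-05), and overlaps both Ifnar2 and Il10rb, so that reads may be divided among them. RNA of neighbouring receptor genes therefore moved in opposite directions in the same libraries.

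**Figure D2:**
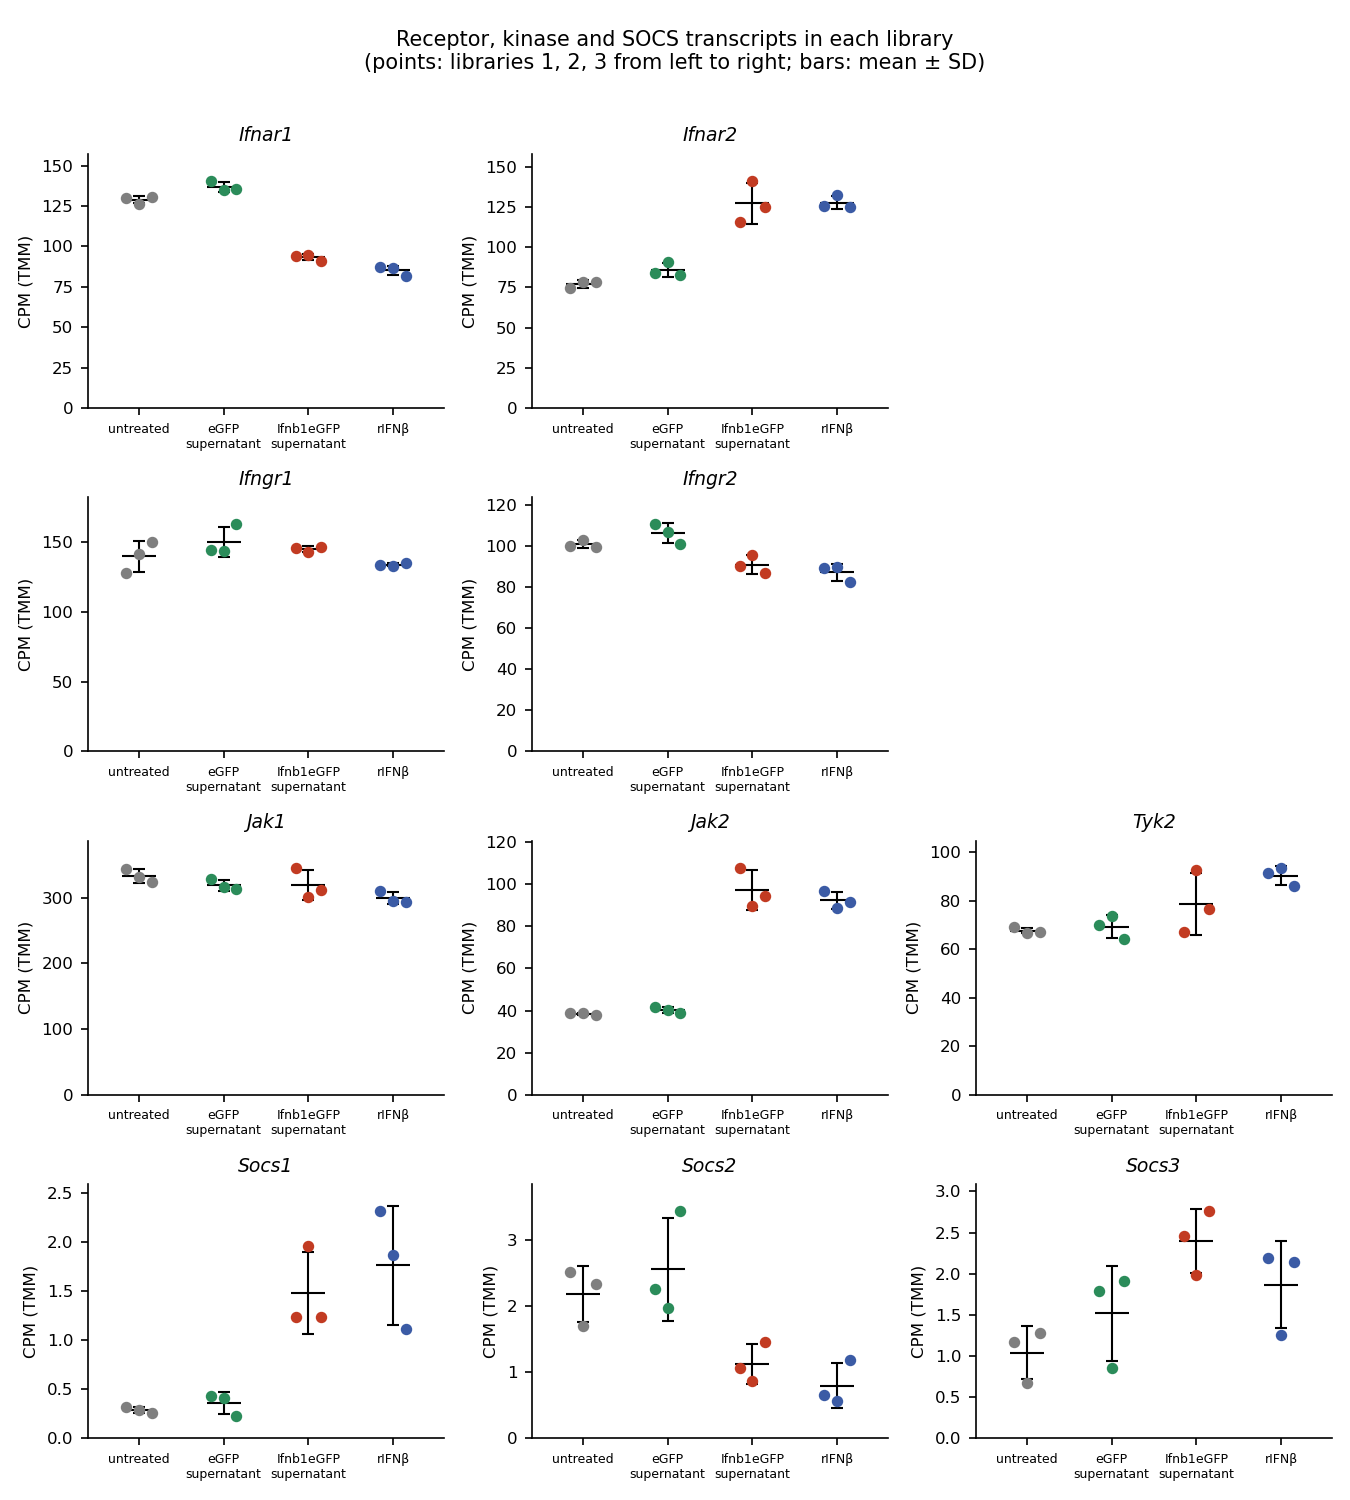
CPM of each gene (vertical axes, starting at zero) in the 12 libraries, 3 for each condition, with the mean and SD as bars. Ifnar2, Jak2 and Socs1 sit higher and Ifnar1, Ifngr2 and Socs2 lower in both IFNβ-exposed conditions, and the library numbered 2 is the lowest of the 3 for Socs2 and Socs3 in each condition.

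Of the kinases, Jak2 (ENSMUSG00000024789, chr19:29228677-29290505, plus strand), which serves IFNGR2 and the receptors of many haematopoietic cytokines, moved most. It had 38.7, 38.7 and 37.8 CPM in untreated libraries, 41.7, 40.0 and 38.9 with eGFP supernatant, 107.6, 89.6 and 94.3 with Ifnb1eGFP supernatant and 96.4, 88.6 and 91.5 with rIFNβ. The exposed libraries stood far above the others, with the spread within each condition small beside the step. The level was 2.42-fold higher with Ifnb1eGFP supernatant (log2 fold change 1.27, SE 0.0646, adjusted p = 2.45e-08) and 2.40-fold higher with rIFNβ (log2 fold change 1.26, SE 0.0649, adjusted p = 2.31e-08). Without the eGFP library that stood apart the first was 1.27 on the log2 scale. By p, Jak2 ranked 344 and 415 of the 15033 genes tested.

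Jak1 (ENSMUSG00000028530, chr4:101008838-101122487, minus strand), the kinase that both interferon receptors share, kept close to its level. It had 344, 331 and 324 CPM in untreated BMDM, 328, 316 and 313 with eGFP supernatant, 345, 301 and 312 with Ifnb1eGFP supernatant and 311, 296 and 293 with rIFNβ. With Ifnb1eGFP supernatant the log2 fold change was 0.00 (95% confidence interval −0.12 to 0.12, adjusted p = 0.973), and −0.01 (adjusted p = 0.95) without the eGFP library that stood apart, and the libraries overlapped. With rIFNβ it was −0.15 (−0.27 to −0.03, adjusted p = 0.0326), with all rIFNβ libraries below the untreated ones. That call was lost when control 1 (−0.13, adjusted p = 0.104), control 2 (−0.16, 0.067), rIFNβ 2 (−0.14, 0.0905) or rIFNβ 3 (−0.13, 0.105) was left out. Other settings that lost or kept it are given in the last section.

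Jak2 and Jak1 therefore differed in their response within the same libraries. There were 0.112 to 0.127 counts of Jak2 for each count of Jak1 in unexposed libraries and 0.298 to 0.313 in exposed ones, 2.54-fold more (exact permutation test as above, p = 0.005, adjusted p = 0.01). On the log2 scale this is 1.34, with and without the eGFP library that stood apart.

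Tyk2 (ENSMUSG00000032175, chr9:21015363-21042689, minus strand), the partner of IFNAR1, rose with rIFNβ. Its CPM was 69.1, 66.9 and 67.3 in untreated libraries, 69.9, 73.8 and 64.2 with eGFP supernatant, 67.3, 92.6 and 76.5 with Ifnb1eGFP supernatant and 91.3, 93.6 and 86.0 with rIFNβ. The rIFNβ libraries were all above the untreated ones, while the Ifnb1eGFP supernatant libraries spread from the level of the unexposed libraries to that of rIFNβ. The log2 fold change was 0.41 (SE 0.0963, adjusted p = 0.00329) with rIFNβ and 0.19 (95% confidence interval −0.03 to 0.40, adjusted p = 0.125) with Ifnb1eGFP supernatant. The second value rested on single libraries. It was 0.25 (adjusted p = 0.0106) without Ifnb1eGFP supernatant 1, the lowest of its condition, 0.05 (adjusted p = 0.53) without Ifnb1eGFP supernatant 2, the highest, and 0.23 (adjusted p = 0.104) without the eGFP library that stood apart. The difference between these changes was itself tested, as the interaction of IFNβ with supernatant, and was −0.23 on the log2 scale (95% confidence interval −0.53 to 0.07, adjusted p = 0.926).

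**Figure D3:**
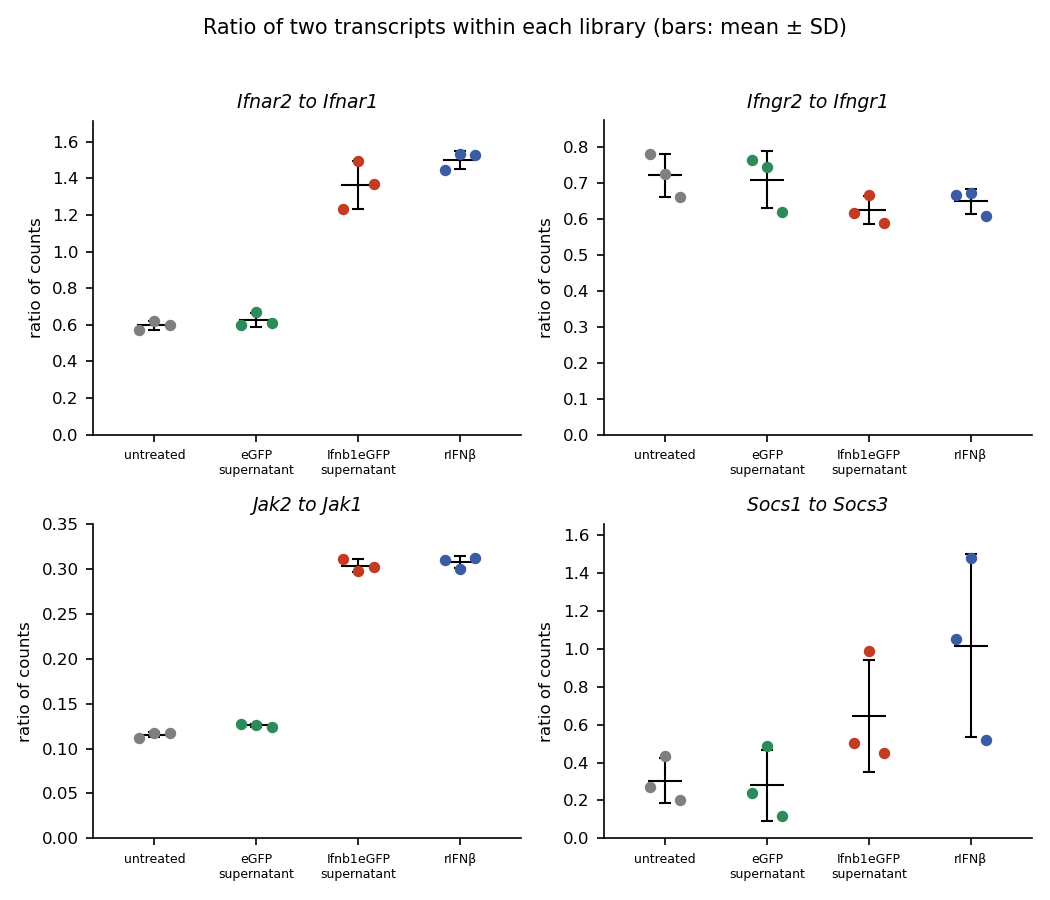
Counts of the first gene for each count of the second within each library (vertical axes, starting at zero), with the mean and SD of 3 libraries per condition. Exposed and unexposed libraries separate for Ifnar2 to Ifnar1 (1.23 to 1.53 against 0.572 to 0.672) and for Jak2 to Jak1 (0.298 to 0.313 against 0.112 to 0.127), and overlap for the other two ratios.

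The SOCS genes were the 3 scarcest of the 10 transcripts, with 9 to 137 counts per library where the receptors and kinases had 1216 or more, so that their errors are larger. Socs1 (ENSMUSG00000038037, chr16:10600104-10603875, minus strand), the strongest inhibitor of interferon receptor signaling in its family, had 10, 10 and 11 counts in untreated libraries and 17, 17 and 9 with eGFP supernatant. It had 49, 79 and 57 counts with Ifnb1eGFP supernatant and 78, 83 and 44 with rIFNβ. In CPM these were 0.318, 0.293 and 0.260, then 0.430, 0.414 and 0.226, then 1.24, 1.96 and 1.24, then 2.31, 1.87 and 1.11, with no exposed library near an unexposed one. Socs1 was 4.11-fold higher with Ifnb1eGFP supernatant (log2 fold change 2.04, SE 0.334, adjusted p = 0.000304) and 6.04-fold higher with rIFNβ (log2 fold change 2.60, SE 0.349, adjusted p = 6.33e-05). Without the eGFP library that stood apart the first was 2.16 on the log2 scale. It was the 1 gene of the 10 past the threshold of the study's methods, a log2 fold change of at least 2 at an adjusted p of at most 0.01. In the first comparison it fell short of that threshold when eGFP supernatant 3 (1.80) or Ifnb1eGFP supernatant 2 (1.79) was left out.

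Socs2 (ENSMUSG00000020027, chr10:95219523-95253929, minus strand) fell, the only SOCS gene of the 3 to do so. It had 2.51, 1.70 and 2.34 CPM in untreated BMDM and 2.26, 1.97 and 3.44 with eGFP supernatant. With Ifnb1eGFP supernatant it had 1.06, 0.869 and 1.46 CPM and with rIFNβ 0.653, 0.562 and 1.18, below each unexposed library. The level was 2.26-fold lower with Ifnb1eGFP supernatant (log2 fold change −1.17, SE 0.308, adjusted p = 0.00701) and 2.72-fold lower with rIFNβ (−1.45, SE 0.324, adjusted p = 0.00264). Without the eGFP library that stood apart the first was −1.33.

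Socs3 (ENSMUSG00000053113, chr11:117856905-117860898, minus strand), the inhibitor of receptors of the IL6 type, had 1.18, 0.673 and 1.28 CPM in untreated libraries and 1.79, 0.853 and 1.91 with eGFP supernatant. It had 2.45, 1.99 and 2.76 CPM with Ifnb1eGFP supernatant and 2.20, 1.26 and 2.15 with rIFNβ. The library numbered 2 was the lowest of its condition in all 4, and for Socs2 as well. The log2 fold change was 0.66 (95% confidence interval −0.05 to 1.37, adjusted p = 0.104) with Ifnb1eGFP supernatant, where the libraries did not overlap, and 0.83 (0.08 to 1.58, adjusted p = 0.0595) with rIFNβ, where they did. The first was 0.38 (adjusted p = 0.319) without the eGFP library that stood apart, and the second 1.05 (adjusted p = 0.0273) without rIFNβ 2. With the replicate number added to the model as a block, Socs3 was called higher in both comparisons, with values given in the last section. Its non-calls here thus hold for the model without that block.

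The ratio of Socs1 to Socs3 within a library was 0.118 to 0.486 in unexposed and 0.449 to 1.48 in exposed libraries. It was 2.86-fold higher with IFNβ (exact permutation test as above, p = 0.01, adjusted p = 0.0133), though the ranges overlap. On the log2 scale this is 1.52. Without the eGFP library that stood apart it was 1.77 (adjusted p = 0.00667), and the highest unexposed ratio was then 0.435, below each exposed one. Of the genes annotated on the opposite strand of the SOCS genes, the 4 analysed here had at most 6 counts in any library, and 3 others were not analysed here. RNA from either strand can be told apart in libraries made with a stranded kit, but the strand setting used for counting is not given in the sources used here.

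Levels of different genes were compared as RPKM, the CPM per kilobase of annotated exon. In untreated BMDM the order was Ifngr1 (49.1 ± 3.94 RPKM, SD, n = 3), Jak1 (30.8 ± 0.957), Ifngr2 (22.3 ± 0.424), Ifnar2 (20.6 ± 0.623), Ifnar1 (15.9 ± 0.273), Tyk2 (7.75 ± 0.133) and Jak2 (6.06 ± 0.0811). The SOCS genes followed far below in RPKM, with Socs3 at 0.293 ± 0.0909, Socs2 at 0.143 ± 0.0282 and Socs1 at 0.0858 ± 0.00855. No neighbours in this order overlapped. With eGFP supernatant the order was the same, but Ifngr2 (23.5 ± 1.06 RPKM) and Ifnar2 (22.9 ± 1.13) overlapped.

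With Ifnb1eGFP supernatant Ifngr1 stayed first at 51.1 ± 0.716 RPKM. Ifnar2 came next at 34.1 ± 3.41 RPKM and overlapped Jak1 at 29.5 ± 2.13, Ifngr2 had 20.1 ± 0.999, and Jak2 had 15.3 ± 1.47 and stood above Ifnar1 (11.5 ± 0.216) and Tyk2 (9.01 ± 1.47). Of the SOCS genes Socs3 (0.674 ± 0.109 RPKM) and Socs1 (0.437 ± 0.123) overlapped, and Socs2 was last at 0.0740 ± 0.0196. With rIFNβ the order by mean was the same, with overlaps of Ifnar1 (10.5 ± 0.352 RPKM) with Tyk2 (10.3 ± 0.445) and of Socs3 (0.525 ± 0.148) with Socs1 (0.522 ± 0.180). Jak2 thus moved from the last of the receptors and kinases to above Ifnar1 and Tyk2, and Socs1 from the last of all 10 to above Socs2. Per kilobase of the longest transcript in place of all exons, Ifnar1 stood above Ifnar2 in untreated BMDM (24.4 against 23.4 RPKM) and Jak1 above Ifnar2 with IFNβ (51.8 against 38.7 with Ifnb1eGFP supernatant). On that scale Ifnar1 also stood above Jak2 with Ifnb1eGFP supernatant (17.6 against 17.1), and Tyk2 above both with rIFNβ (17.7 against 16.2 for Jak2 and 16.1 for Ifnar1).

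**Figure D4:**
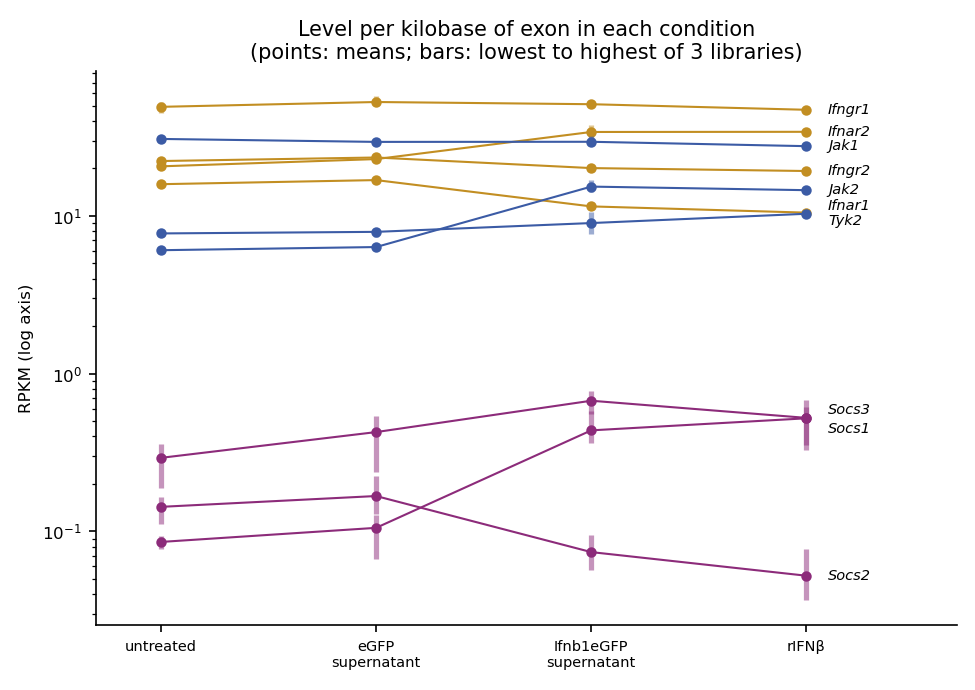
Mean RPKM (log axis) of the 10 genes in the 4 conditions, with bars from the lowest to the highest of 3 libraries and lines that join the same gene (receptors ochre, kinases blue, SOCS genes purple). Jak2 rises past Tyk2 and Ifnar1 with IFNβ, Ifnar2 and Ifnar1 move apart, and Socs1 and Socs2 cross.

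The second question was whether the source of IFNβ, or the supernatant itself, made a difference. Ifnb1eGFP supernatant was compared with rIFNβ, and 0 of the 10 genes passed an adjusted p of 0.05 (edgeR), beside 0.16% of all genes, with 1 gene at an unadjusted p under 0.05. That gene was Ifnar1, 0.13 higher on the log2 scale (95% confidence interval 0.05 to 0.22, adjusted p = 0.42), with each Ifnb1eGFP supernatant library above each rIFNβ library. DESeq2 called Ifnar1 in this comparison (0.14, adjusted p = 0.0329). Intervals of the other receptors and kinases lay within −0.41 (Tyk2) and 0.25 (Ifngr1). For Jak2 the difference was 0.08 (−0.06 to 0.21). Intervals of SOCS genes were wider, with Socs1 at −0.25 (−0.89 to 0.39), Socs2 at 0.50 (−0.23 to 1.23) and Socs3 at 0.37 (−0.33 to 1.07). The comparison rested on 1 library. Over all genes tested 24 were called, and 1051 when Ifnb1eGFP supernatant 2 was left out, where leaving out any other library gave 4 to 23. Among the 10 genes Tyk2 was then called, at −0.33 (adjusted p = 0.0336).

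The eGFP supernatant was compared with untreated medium, and 0 of the 10 genes passed (edgeR), beside 0.299% of all genes, with 2 at an unadjusted p under 0.05. DESeq2 called 0 of the 7 receptor and kinase genes and gave no adjusted p for the SOCS genes. Over all genes tested 45 were called, 16 without the eGFP library that stood apart and 20 to 32 without any 1 of the others. The 2 of the 10 at an unadjusted p under 0.05 were Ifnar1 at 0.09 (95% confidence interval 0.00 to 0.17, adjusted p = 0.604) and Ifnar2 at 0.15 (0.01 to 0.30, adjusted p = 0.6), each with all eGFP libraries above the untreated ones. Without the eGFP library that stood apart they were 0.10 and 0.11. Socs3 had the largest value, 0.53 (−0.22 to 1.29, adjusted p = 0.811), and 0.82 (adjusted p = 0.687) without that library. Pooled over both IFNβ states, supernatant against no supernatant called 0 of the 10 genes (edgeR), beside 0.905% of all genes, with 2 at an unadjusted p under 0.05. The pooled comparison called 136 genes in all, 531 without Ifnb1eGFP supernatant 2, 70 without the eGFP library that stood apart and 55 to 132 without any 1 of the others. Ifnar1 was higher by 0.11 (95% confidence interval 0.05 to 0.17, adjusted p = 0.114), which DESeq2 called (0.12, adjusted p = 0.00237), and Ifngr1 by 0.11 (0.01 to 0.21, adjusted p = 0.377).

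The interaction, which asks whether IFNβ moved a gene differently with and without supernatant, called 0 of the 10 genes (edgeR, and 0 with DESeq2), beside 0% of all genes, with 0 of the 10 at an unadjusted p under 0.05. For Ifnar1 it was 0.04 (95% confidence interval −0.07 to 0.16), for Ifngr2 −0.01 (−0.17 to 0.15) and for Jak2 0.01 (−0.19 to 0.21) on the log2 scale. Ifnar2 had −0.16 (−0.36 to 0.05) and Jak1 0.15 (−0.01 to 0.32). Intervals of the SOCS genes reached from −1.64 to 0.53 for Socs1, from −0.71 to 1.25 for Socs2 and from −1.19 to 0.87 for Socs3. The eGFP library that stood apart did not decide this count, which was 0 of the 10 without it as well, with Socs1 at −0.43, Socs2 at 0.11 and Socs3 at −0.45.

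Other genes of the pathway were read from lists chosen by name. Their counts stand beside the 30.1% of all genes that were higher and 25% lower with Ifnb1eGFP supernatant, 55.1% in all, and the 30.7% higher and 24.6% lower with rIFNβ, 55.3% in all. Each list was also counted without the eGFP library that stood apart, where the genes named below as changed with Ifnb1eGFP supernatant were called again except Cish and Socs6. Without that library fewer genes were called in all with Ifnb1eGFP supernatant, 7339 against 8281, so the shares above belong to the fit with all libraries. Of 7 genes for STATs and Irf9, 5 were higher with each source of IFNβ and 0 lower, with a median log2 fold change of 0.37 with Ifnb1eGFP supernatant and 0.45 with rIFNβ. The 5 and 0 stayed so without that library. Stat2, which acts downstream of the type I receptor, rose from 76.4 ± 42.3 to 648 ± 10.1 CPM (SD, n = 3) with Ifnb1eGFP over eGFP supernatant (log2 fold change 3.08, adjusted p = 4.93e-06). The eGFP libraries had 57.9, 124.8 and 46.6 CPM, and without the second the log2 fold change was 3.63 (adjusted p = 1.21e-08). Irf9, its partner, rose by 1.50 (adjusted p = 3.44e-06) and by 1.73 without it, Stat3 by 0.67 (adjusted p = 2.43e-07) and Stat6, the STAT of IL4, by 0.33 (adjusted p = 1.78e-05). Log2 fold changes of the parts of the signal thus ranged from below 0 for Ifnar1 to above 3 for Stat2 in the same libraries.

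Among 6 further JAK and SOCS family genes, 3 were higher and 1 lower with Ifnb1eGFP supernatant and 2 higher and 1 lower with rIFNβ. In all 4 and 3 of the 6 were called, a share near that of all genes, and the first counts were 2 and 0 without the eGFP library that stood apart. Jak3, the kinase of the common γ chain, rose by 0.75 (adjusted p = 0.00603) and 1.15 (adjusted p = 0.000383). Socs4 rose by 0.27 (adjusted p = 0.0107) and 0.20 (adjusted p = 0.049) and Socs6 fell by 0.17 (adjusted p = 0.047) and 0.22 (adjusted p = 0.0169), the first being −0.16 (adjusted p = 0.119) without the eGFP library that stood apart. Cish, a target of STAT5 that restrains it, rose with Ifnb1eGFP supernatant (0.70, adjusted p = 0.0153, and 0.57, adjusted p = 0.0766, without that library) and had −0.02 (adjusted p = 0.955) with rIFNβ, at 30.9 counts or fewer in any library.

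Of 12 other negative regulators of JAK-STAT signaling, 6 were higher and 1 lower with Ifnb1eGFP supernatant and 6 higher and 3 lower with rIFNβ, with medians of 0.10 and 0.17. The 7 of 12 called in the first is a share like that of all genes, and without the eGFP library that stood apart 5 were higher and 1 lower. Ptpn6, which codes for the phosphatase SHP-1, rose by 0.78 (adjusted p = 3.62e-08) and 0.81 (adjusted p = 2.31e-08), and Ptpn2, a phosphatase of JAK1, by 0.65 (adjusted p = 7.74e-06) and 0.66 (adjusted p = 7.13e-06). The ubiquitin ligase gene Cblb rose by 0.53 (adjusted p = 2.18e-05) and Pias1, of a family that inhibits STAT proteins, by 0.39 (adjusted p = 2.92e-05) with Ifnb1eGFP supernatant. Usp18, named after its values were seen, codes for the protein that displaces JAK1 from IFNAR2 and had the largest change of the list. It went from 5.01 ± 1.54 CPM in untreated BMDM to 292 ± 14.0 with rIFNβ (log2 fold change 5.88, adjusted p = 5.76e-06). With eGFP supernatant it was 14.0 ± 13.8 and with Ifnb1eGFP supernatant 276 ± 19.2 CPM (4.30, adjusted p = 3.33e-05). The eGFP libraries had 7.34, 29.8 and 4.74 CPM, and without the second the log2 fold change was 5.51 (adjusted p = 2.17e-08).

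Genes for receptor turnover, which code for ubiquitin ligase parts and kinases that mark receptors or SOCS-bound proteins for removal, were called about as often as all genes. Of 11, 4 were higher and 2 lower with Ifnb1eGFP supernatant and 3 higher and 2 lower with rIFNβ, with medians of 0.08 and 0.04 over members that went both ways. The first counts were 3 and 2 without the eGFP library that stood apart. Rbx1, the RING subunit of the ligase that acts on IFNAR1, rose by 0.40 (adjusted p = 1.73e-06) and Fbxw11, one of its F-box proteins, by 0.27 (adjusted p = 0.000285) with Ifnb1eGFP supernatant. Rnf7, the RING subunit of SOCS ligases, fell by 0.48 (adjusted p = 1.77e-06) and Cul1 by 0.18 (adjusted p = 0.00739).

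Other cytokine receptors that use JAK kinases were split, with 7 of 16 higher and 7 lower with Ifnb1eGFP supernatant and 6 higher and 6 lower with rIFNβ. In both directions this is more than the share of all genes, but by few genes, and the difference was not tested. Without the eGFP library that stood apart the first were 6 and 6. Il15ra, the private IL15 receptor chain, rose by 2.04 (adjusted p = 4.84e-07), Csf3r, the G-CSF receptor, by 0.95 (adjusted p = 5.04e-07) and Il6ra by 0.65 (adjusted p = 1.82e-07) with Ifnb1eGFP supernatant. Csf2rb, the shared chain of the GM-CSF receptor that carries JAK2, fell by 0.83 (adjusted p = 2.9e-06), and has a near-identical copy, Csf2rb2, so that its reads may be divided. Of 5 other receptors of the interferon and IL10 family 3 were tested. Il10ra rose with Il10rb (0.96, adjusted p = 1.68e-08), and Il20rb fell by 1.54 (adjusted p = 2.84e-05).

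Of 16 ligands of these receptors 4 were tested, and 7 had 0 counts in all libraries. Ifnb1 had at most 1 count in any BMDM library. Il10 rose from 0.564 ± 0.0556 to 7.01 ± 0.414 CPM with Ifnb1eGFP over eGFP supernatant (log2 fold change 3.63, adjusted p = 8.31e-09). Lif (1.44, adjusted p = 0.0039) and Osm (0.37, adjusted p = 0.028) rose too, and Il4 had −0.58 (adjusted p = 0.197).

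**Figure D5:**
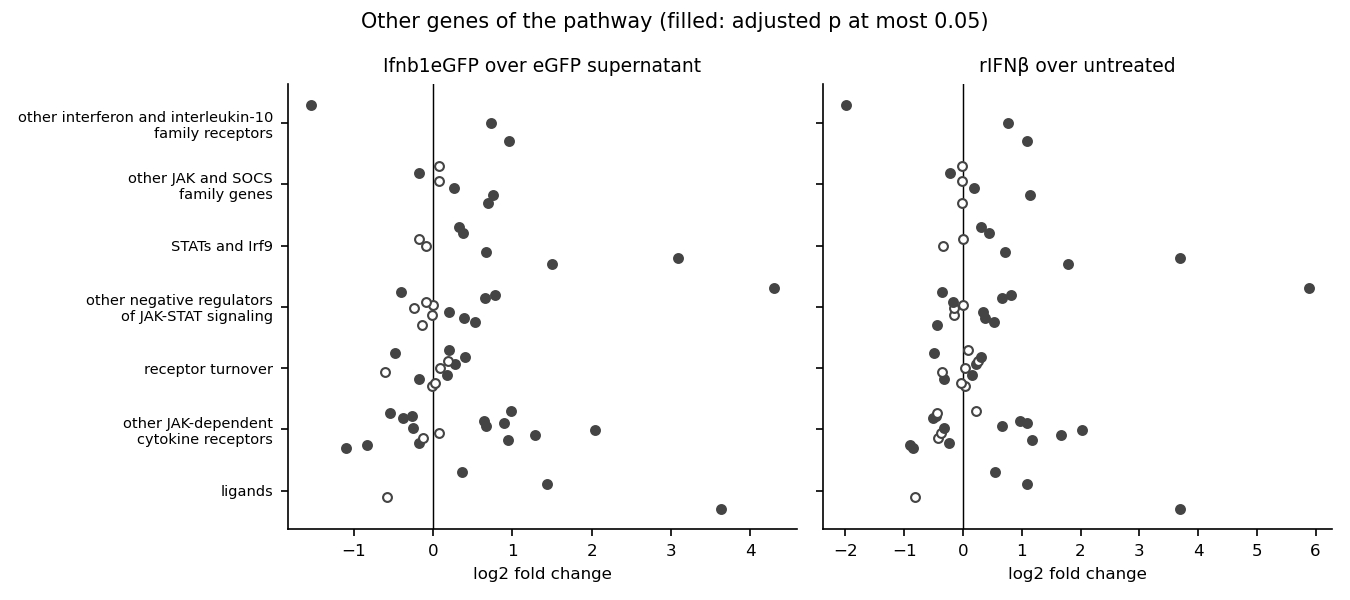
Log2 fold change of each tested gene of the pathway lists (points, filled at an adjusted p of at most 0.05) for Ifnb1eGFP over eGFP supernatant and for rIFNβ over untreated control, with separate horizontal scales. The filled points of STATs and Irf9 all lie right of zero, while other JAK-dependent cytokine receptors lie on both sides.

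The genes most like each of the 10 in log2 CPM over the 12 libraries were found by Pearson's r, as a description of libraries that share conditions. For Ifnar1 they were Trf and Spata13 (r = 0.998 and 0.995), for Ifnar2 Rab20 and Plod1 (0.997 each), for Jak2 Mrpl1 and Clec4a3 (0.999 each) and for Tyk2 Acbd4 and Selenon (0.989 each). Ifngr2 was most like Atp6ap1 (0.979) and Cebpa (0.978), and Jak1 like Slc18a2 (0.954) and Tmf1 (0.939). Socs1 went with Bcl6 and Atg13 (0.99 each), Socs2 with Ranbp6 and Styx (0.969 each) and Socs3 with Fam83f (0.945) and Kat6b (0.92). The lowest values were those of Ifngr1, with Dusp5 (0.853) and Glt8d1 (0.852).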

How the data were processed

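Total RNA of M2-like BMDM (12 libraries, TruSeq Stranded Total RNA) was sequenced, and the authors used RSEM (v1.3.3) and deposited its expected counts per Ensembl gene, not normalized. The reference is written as GRCm39 mm10, naming 2 builds. Annotation and strand setting are not given in the sources used here. Expected counts were rounded (12.0% of values were not whole) and analysed in R 4.3.3 with edgeR 4.0.16: filterByExpr, TMM 1 quasi-likelihood model over all libraries, p-values adjusted (Benjamini-Hochberg) over 15033 genes and calls up to an adjusted p of 0.05. The model was tested on simulated data. Each of 12 columns was assigned by its sample description, and 0 were left over. CPM used deposited expected counts, and gene names and exon lengths came from GENCODE M39 (56017 of 56748 identifiers). With 3 libraries against 3 an exact permutation test cannot go below 0.1, so the model alone tested single genes. Ratios within libraries were compared by permuting IFNβ labels among supernatant and among other libraries.

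The 10 genes and the lists were chosen with earlier results of these data known, and 1 gene of the lists is not reported here. Named were the 10 genes, at most 4 of each list by adjusted p, and the 2 genes most like each of the 10. Alternatives were DESeq2 1.42.0, other scaling, no filter, a replicate block, only the compared conditions, other thresholds, another transcript length, 0.5 counts added to ratios, each library left out and, chosen after seeing the data, Gm21970 counts added to Ifnar2 and the lists without eGFP library 2.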

Additional observations from a re-analysis of the deposited data

How the results depend on the processing

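The 6 and 8 genes called with Ifnb1eGFP supernatant and with rIFNβ became 3 and 3 when a log2 fold change of at least 1 was also asked for, and 1 and 1 at the threshold of the methods (log2 fold change 2, adjusted p 0.01), as fewer genes can pass. Of all 15033 genes tested, 8281 and 8313 were called, then 2317 and 2400, then 811 and 867. DESeq2 called 1 gene, Ifnar1, for Ifnb1eGFP supernatant against rIFNβ (115 genes in all against 24 with edgeR) and 1, Ifnar1 again, for supernatant pooled over both IFNβ states (349 against 136). For eGFP supernatant against untreated control it called 204 genes in all against 45, and the cause was not tested. Leaving out each library in turn gave 6 to 7 calls for Ifnb1eGFP against eGFP supernatant and 7 to 8 for rIFNβ against untreated control. It gave 0 to 1 for Ifnb1eGFP supernatant against rIFNβ, where the call was Tyk2 without Ifnb1eGFP supernatant 2. The log2 ratio of Ifngr2 to Ifngr1 ran from −0.21 to −0.14 (adjusted p 0.02 to 0.095). Jak1 with rIFNβ was not called with library totals (−0.14, adjusted p = 0.0564) or without the filter (−0.15, 0.0832), and Socs3 was called there without the filter (0.83, 0.0434). Jak1 was called there with DESeq2 (−0.20, adjusted p = 0.00486), with RLE factors in place of TMM (−0.20, 0.015) and with the replicate block (−0.15, 0.00666). Per kilobase of the longest transcript 35 of 40 levels moved beyond their spread. This follows from the lengths, as the same CPM was divided by a shorter length, except for Socs1, where both lengths are the same.

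Libraries with the same replicate number deviated together only in part (r of deviations 0.0582 to 0.252 over 18 pairs, above 0.1 in 13), so the numbers were not taken as pairs, although a library correlated best with its own number for 6 of 6 libraries in 5 of 6 pairs of conditions and 5 of 6 in the other. With the number as a replicate block 7 and 9 genes were called, Socs3 being the added one with Ifnb1eGFP supernatant (0.71, adjusted p = 0.00325) and with rIFNβ (0.84, 0.00176). Calls over all genes tested rose as well, from 8281 to 8867 and from 8313 to 8846. The replicate block left 0 of the 10 called in the other comparisons, where 48, 122, 0 and 252 genes in all were called for the source of IFNβ, eGFP supernatant, the interaction and pooled supernatant.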
